A study of Homo sapiens with 12 samples.

Results

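The genes described here are 9 enzymes of serine synthesis and of the folate one-carbon cycle, matched to their Entrez identifiers among the 26258 genes of the deposited table. They were taken by symbol, with no threshold on their values, and all 9 were among the 13515 genes tested. The set was chosen with earlier results of these data known, so its counts and medians beside those of all genes are a description only. Of these, 3 build serine (*PHGDH*, *PSAT1* and *PSPH*), 2 carry the cytosolic folate steps (*SHMT1* and *MTHFD1*), 3 carry the mitochondrial ones (*SHMT2*, *MTHFD2* and *MTHFD1L*), and 1 belongs to the glycine cleavage system (*GLDC*).

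RNA was sequenced from HLE cells, a human hepatocellular carcinoma line, in which YAP and TAZ were depleted together by siRNA (siY/T), ATF4 was depleted (siATF4), or a non-targeting control was transfected (siCtrl). Cells of every transfection received Sorafenib (Srf), an inhibitor of several kinases, at 5 µM by the sample labels, or DMSO as its solvent; the study's text gives another concentration. Each of these 6 groups had 2 libraries, 12 altogether, all from 1 cell line. The study's methods name biological triplicates for the RNA, but the labels do not say whether the 2 libraries of a group came from separate cultures, so the p-values measure the spread between these libraries, which may be technical. In RNA from whole cultures, fewer cells expressing a gene and less RNA per cell cannot be told apart.

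Depth ran from 41408348 to 53619732 gene-assigned reads per library, and the siRNA targets were lower in every library of the groups aimed at them. *YAP1* was at 277 and 279.9 CPM (counts per 1000000 gene-assigned reads) in siCtrl DMSO cells and at 46.6 and 57.7 CPM in siY/T DMSO cells. *WWTR1*, which encodes TAZ, was at 169.8 and 173 CPM in siCtrl DMSO and at 53.3 and 68.6 CPM in siY/T DMSO cells. It was also lower in siATF4 DMSO cells, at 107 and 104 CPM, a log2 fold change of -0.70 (standard error 0.089, limma, Benjamini-Hochberg adjusted p = 1.29e-05), but not called in siATF4 Srf cells, with -0.091, and its part in the siATF4 values in DMSO was not tested. The means of *ATF4* were 248 CPM in siCtrl DMSO, 202 CPM in siY/T DMSO and 98.5 CPM in siATF4 DMSO cells, and 488, 315 and 87.6 CPM in the same order with Srf. With siY/T *ATF4* was itself called lower in Srf, a log2 fold change of -0.63 (standard error 0.044, limma, Benjamini-Hochberg adjusted p = 1.84e-07). It was not called in siY/T DMSO cells, with -0.30. The part of *ATF4* in the siY/T values was not tested. Of 10 hepatocyte markers 7 were under 1 CPM in every library, *ALB* among them with at most 0.021 CPM, and so were both hepatocellular carcinoma markers looked at (*AFP* and *GPC3*), whereas the mesenchymal marker *VIM* lay between 1952 and 2916 CPM. Of the other hepatocyte markers, *FGB* lay between 64.4 and 431 CPM, *CPS1* between 5.37 and 17.8 CPM, and *SERPINA1* reached 2.32 CPM. Among epithelial markers, *KRT8* lay between 655 and 2558 CPM and *KRT18* between 312 and 1089 CPM. *CDH1* reached 7.93 CPM and *EPCAM* stayed under 1 CPM. The mesenchymal *FN1*, *ZEB1* and *CDH2* reached 79.6, 27.0 and 6.92 CPM. The labelled hepatocellular origin was therefore not visible in most of the hepatocyte and carcinoma markers. All 5 markers of other cell types stayed under 1 CPM in every library.

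Cells make serine from the glycolytic intermediate 3-phosphoglycerate, which PHGDH oxidizes, PSAT1 transaminates and PSPH dephosphorylates. Serine hydroxymethyltransferases then pass a carbon from serine to tetrahydrofolate, leaving glycine, and the folate-bound carbon is oxidized or reduced for the making of purines, thymidylate and formate. The cycle runs in both compartments, with SHMT1 and the trifunctional MTHFD1 in the cytosol and SHMT2, MTHFD2 and MTHFD1L in mitochondria. ATF4, a transcription factor of the integrated stress response, is known to induce several of these genes when amino acids run short, and YAP and TAZ are the transcriptional co-activators at the end of the Hippo pathway.

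*PHGDH* and *PSAT1* fell with siATF4 and with siY/T, in DMSO and in Srf, while *PSPH*, the last enzyme of the same route, was not lower in any depleted group. *MTHFD2* fell with siY/T in both media but with siATF4 in Srf only, and this difference between the media passed its own test. *SHMT2* and *MTHFD1L* lay lower with siY/T by 0.42 to 0.56 on the log2 scale, short of the fold threshold, and were not lower with siATF4. The cytosolic *SHMT1* and *MTHFD1* passed the threshold in no comparison with siCtrl.

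A gene was called lower or higher where its log2 fold change was 0.58 or more in size and its unadjusted p, two-sided, was under 0.05, the thresholds of the study's methods, in a limma fit of log2(CPM + 0.5) over all 12 libraries. Fold changes are therefore on the log2(CPM + 0.5) scale, which understates those of low genes. With siY/T in DMSO, 4 of the 9 enzymes were called lower and 0 higher, against 3.61% lower and 11.0% higher of all genes tested. With siATF4 in DMSO, 2 were called lower and 0 higher, against 14.1% and 8.57% of all genes. In Srf, siY/T lowered 3 and raised 0, against 3.84% and 6.11%, and siATF4 lowered 3 and raised 0, against 18.7% and 10.3%. The median log2 fold change of the 9 enzymes was -0.56 with siY/T in DMSO and -0.42 in Srf, beside 0.07 and 0.05 over all genes tested. For siATF4 it was 0.16 in DMSO and 0.07 in Srf, beside -0.0013 and -0.0082 over all genes. Within a medium both depletions were compared with the same siCtrl libraries, so their values are given side by side only.

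**Figure D1:**
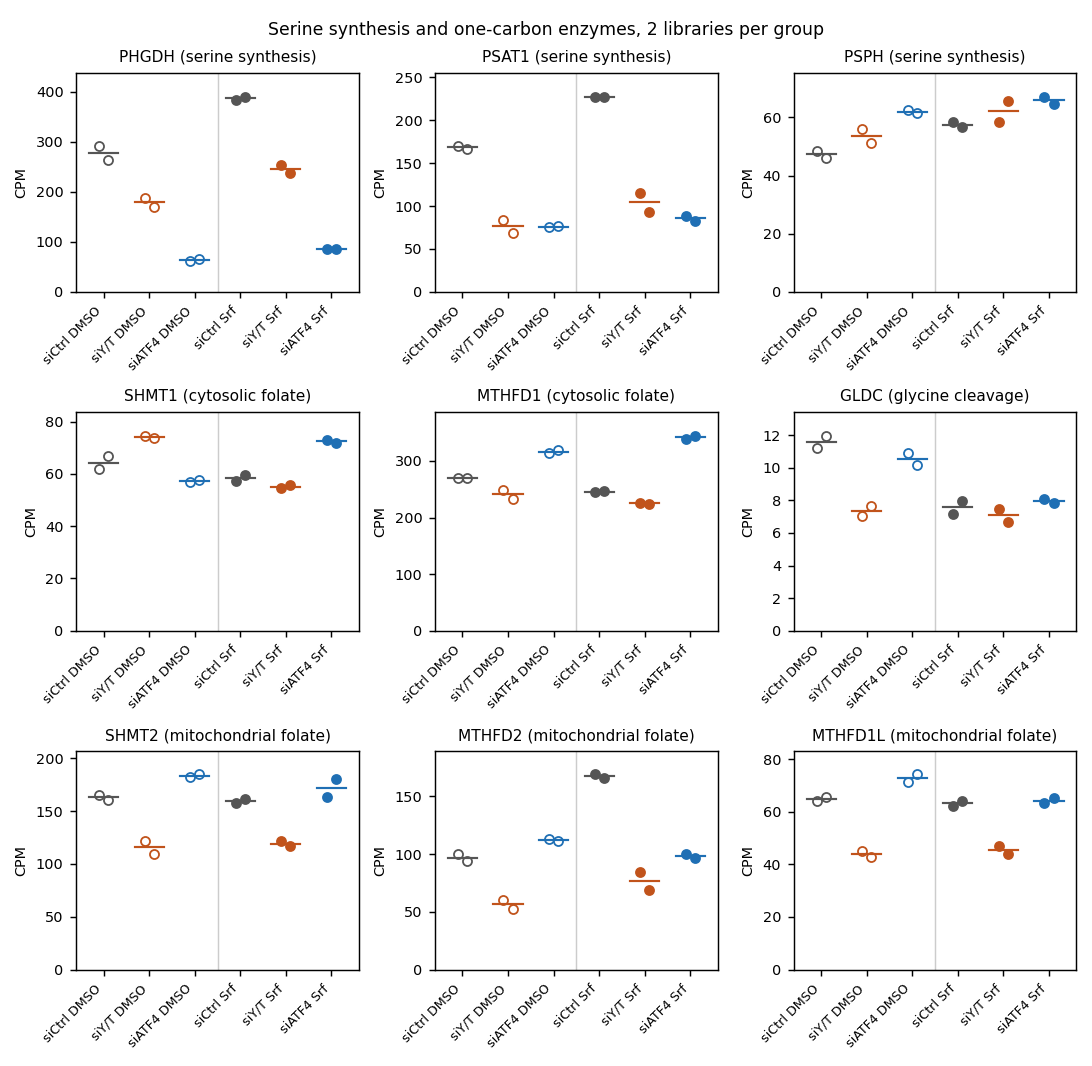
CPM of the 9 enzymes (vertical axes, starting at 0 and scaled for each gene) in the 6 groups, with 1 point per library, open for DMSO and filled for Srf, and a line at the mean of the 2 libraries. *PHGDH* and *PSAT1* are highest in siCtrl Srf cells, with means of 387 and 227 CPM, and low in both siATF4 groups, while *SHMT2* and *MTHFD1L* are lowest in the siY/T groups.

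Between genes, levels were compared as CPM per kilobase of the MANE Select transcript, which depends on which transcript the cells use. In siCtrl DMSO cells *PHGDH* stood at 149 CPM per kb, ahead of *MTHFD1* with 85.4, *PSAT1* with 76.4 and *SHMT2* with 75.6 CPM per kb. *SHMT1* (25.4 CPM per kb), *PSPH* (24.0), *MTHFD2* (22.0) and *MTHFD1L* (18.8) followed, and *GLDC* was the lowest with 3.02 CPM per kb. In siATF4 DMSO cells *PHGDH* was at 34.0 CPM per kb, below *MTHFD1* with 100.3 and *SHMT2* with 85.2 CPM per kb.

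*PHGDH* (Entrez 26227, GRCh37 chromosome 1 from 120191034 to 120286841, plus strand) encodes phosphoglycerate dehydrogenase, the entry into serine synthesis. In DMSO its 2 libraries stood at 292 and 264 CPM with siCtrl, 188 and 170.4 CPM with siY/T, and 61.4 and 65.5 CPM with siATF4. In Srf they stood at 383 and 390.3 CPM with siCtrl, 254 and 237 CPM with siY/T, and 84.8 and 86.3 CPM with siATF4. None of the 6 groups overlapped with its neighbour in level, and the order in both media was siCtrl, then siY/T, then siATF4.

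With siATF4 *PHGDH* fell 4.35-fold in DMSO, a log2 fold change of -2.12 (standard error 0.061, limma, Benjamini-Hochberg adjusted p = 1.87e-11), and 4.50-fold in Srf, a log2 fold change of -2.17 (limma, Benjamini-Hochberg adjusted p = 2.04e-11). The fall with siY/T was smaller, -0.63 in DMSO (limma, Benjamini-Hochberg adjusted p = 1.67e-06) and -0.65 in Srf (limma, Benjamini-Hochberg adjusted p = 1.98e-06). The call in DMSO was close to the threshold, since the change was -0.56 without siCtrl DMSO replicate 1 and -0.56 without siY/T DMSO replicate 2. The effects of either siRNA did not differ detectably between the media, by -0.024 (standard error 0.086) for siY/T and -0.048 (standard error 0.086) for siATF4.

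*PSAT1* (Entrez 29968, GRCh37 chromosome 9 from 80912041 to 80945009, plus strand) encodes phosphoserine aminotransferase, the next step. It is shown with the 250 bases before its start because it fell with both siRNAs, as *PHGDH* did, and because no annotated exon overlaps this stretch. The sequence is that of RefSeq on GRCh38.p14, chr9:78296875-78297124, plus strand, in lower case throughout since none of the motifs searched was found in it.
PSAT1: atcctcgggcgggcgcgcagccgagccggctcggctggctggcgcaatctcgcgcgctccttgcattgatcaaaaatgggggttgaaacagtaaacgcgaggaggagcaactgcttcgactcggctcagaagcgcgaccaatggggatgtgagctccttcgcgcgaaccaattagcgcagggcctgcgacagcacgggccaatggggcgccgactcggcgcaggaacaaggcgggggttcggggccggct

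Of these bases 65.6% are G or C. The motifs searched, on both strands, in windows of 250 bases before and 50 bases after each start were the C/EBP-ATF response element core TGATGNAA, the CRE TGACGTCA, the TEAD core GGAATG, the E-box CACGTG and the antioxidant response element core TGACNNNGC. They occur in 3.62%, 1.85%, 14.0%, 7.26% and 13.3% of the 35116 RefSeq windows, in that order. No match was found in the windows of *PHGDH*, *PSAT1*, *SHMT1* and *GLDC*, which says only that these letters are not in these windows. Windows of *PSPH* and *SHMT2* were not used here.

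*PSAT1* libraries were at 171 and 167 CPM in siCtrl DMSO, 83.8 and 68.7 CPM in siY/T DMSO, and 75.6 and 76.5 CPM in siATF4 DMSO cells. In Srf they were at 228 and 227 CPM with siCtrl, 116 and 93.4 CPM with siY/T, and 88.7 and 82.3 CPM with siATF4. Both siCtrl groups lay above all depleted groups, and in DMSO the siY/T and siATF4 libraries overlapped. The log2 fold change in DMSO was -1.15 with siY/T (standard error 0.093, limma, Benjamini-Hochberg adjusted p = 3.79e-07) and -1.14 with siATF4 (limma, Benjamini-Hochberg adjusted p = 1.99e-07). In Srf it was -1.12 with siY/T and -1.41 with siATF4. Set against each other, siATF4 and siY/T differed for *PSAT1* by 0.0035 in DMSO (standard error 0.093, libraries overlapping) and by -0.28 in Srf, whereas for *PHGDH* the log2 fold change of siATF4 against siY/T was -1.49 in DMSO and -1.52 in Srf.

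*PSPH* (Entrez 5723, GRCh37 chromosome 7 from 56078744 to 56119297, minus strand) encodes phosphoserine phosphatase, which releases serine. A pseudogene copy, *PSPHP1*, lies on the same chromosome, and only reads with a single position were kept, so the level of *PSPH* is uncertain. Its libraries were at 48.6 and 46.2 CPM in siCtrl DMSO, 55.9 and 51.1 CPM in siY/T DMSO and 62.5 and 61.6 CPM in siATF4 DMSO cells, and between 56.8 and 67.2 CPM in the 3 Srf groups. The siCtrl DMSO libraries were the lowest of the 12. The log2 fold change was 0.39 with siATF4 in DMSO (standard error 0.062, limma, Benjamini-Hochberg adjusted p = 0.000103) and 0.17 with siY/T, both short of the fold threshold and opposite in sign to those of *PHGDH* and *PSAT1*.

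*MTHFD2* (Entrez 10797, GRCh37 chromosome 2 from 74413299 to 74444692, plus strand) encodes the mitochondrial methylenetetrahydrofolate dehydrogenase and cyclohydrolase. Its libraries were at 99.7 and 94.0 CPM in siCtrl DMSO, 60.2 and 52.7 CPM in siY/T DMSO and 113 and 112 CPM in siATF4 DMSO cells. In Srf they were at 169 and 166 CPM with siCtrl, 84.7 and 68.5 CPM with siY/T, and 100.4 and 96.6 CPM with siATF4. The siCtrl Srf libraries stood above all others, and the siATF4 Srf libraries overlapped those of siCtrl DMSO.

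Of the 9 enzymes *MTHFD2* was the only one called higher with Srf in siCtrl cells, by 0.79 on the log2 scale (standard error 0.083, limma, Benjamini-Hochberg adjusted p = 3.04e-06). With siY/T it fell by 0.78 in DMSO and by 1.13 in Srf (limma, Benjamini-Hochberg adjusted p = 4.20e-06 and 2.53e-07). With siATF4 the log2 fold change was 0.22 in DMSO, under the fold threshold, and -0.76 in Srf (limma, Benjamini-Hochberg adjusted p = 2.13e-06). The difference between the siATF4 effects in Srf and in DMSO was -0.98 (standard error 0.117, limma, Benjamini-Hochberg adjusted p = 3.96e-05), and it stayed between -1.02 and -0.94 over all alternatives. For siY/T that difference was -0.36 (limma, Benjamini-Hochberg adjusted p = 0.0455), close to the threshold. It no longer passed in 10 of the 12 fits that leave out 1 library, all but those without siY/T DMSO replicate 2 or without siY/T Srf replicate 1, although the value stayed at -0.36 in the 4 fits without a siATF4 library and between -0.40 and -0.31 in the 4 without a siCtrl library. It was -0.26 without siY/T DMSO replicate 1 and -0.20 without siY/T Srf replicate 2.

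*SHMT2* (Entrez 6472, GRCh37 chromosome 12 from 57623356 to 57628718, plus strand) encodes the mitochondrial serine hydroxymethyltransferase. Its libraries were at 165 and 161 CPM in siCtrl DMSO, 122 and 109.8 CPM in siY/T DMSO and 183 and 185 CPM in siATF4 DMSO cells, and in Srf at 158 and 162, 122 and 117, and 164 and 180.5 CPM in the same order. Both siY/T groups lay below all other libraries, and the 2 media overlapped with siCtrl and with siY/T. The log2 fold change in DMSO was -0.49 with siY/T (standard error 0.057, limma, Benjamini-Hochberg adjusted p = 8.52e-06) and -0.42 in Srf, both below the fold threshold in size. With siATF4 it was 0.17 in DMSO and 0.10 in Srf.

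*MTHFD1L* (Entrez 25902, GRCh37 chromosome 6 from 151186815 to 151423023, plus strand) encodes the mitochondrial formyltetrahydrofolate synthetase, which releases formate. Of the 7 enzymes whose windows were searched it alone held a match of the C/EBP-ATF response element core, in 3 of its 4 windows and at 1 genomic position. The match is shown in capitals within 30 bases of RefSeq sequence on GRCh38.p14, chr6:150866346-150866375, plus strand, a stretch that overlaps an annotated exon of the gene.
MTHFD1L: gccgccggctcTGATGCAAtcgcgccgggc

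The same 3 windows hold an E-box, and the match is a description of the letters only. *MTHFD1L* libraries were at 64.3 and 65.8 CPM in siCtrl DMSO, 45.2 and 42.8 CPM in siY/T DMSO and 71.4 and 74.3 CPM in siATF4 DMSO cells. In Srf they were at 62.4 and 64.0, 46.9 and 44.1, and 63.3 and 65.2 CPM in the same order. In each medium the siY/T libraries lay below both siCtrl libraries, and those of siATF4 lay above siCtrl in DMSO and overlapped with it in Srf. The log2 fold change in DMSO was -0.56 with siY/T (standard error 0.050, limma, Benjamini-Hochberg adjusted p = 8.69e-07) and -0.47 in Srf. The value in DMSO passed the fold threshold after TMM scaling, with -0.62, after quantile normalization, with -0.61, by edgeR and DESeq2 on the recovered reads, with -0.62 and -0.64, and without siY/T DMSO replicate 1, with -0.60. With siATF4 the log2 fold change was 0.16 in DMSO and 0.024 in Srf.

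Of the cytosolic enzymes, *MTHFD1* (Entrez 4522, GRCh37 chromosome 14 from 64854749 to 64930175, plus strand) joins the dehydrogenase, cyclohydrolase and synthetase steps in one protein. Its window holds an E-box, shown in capitals within 30 bases of RefSeq sequence on GRCh38.p14, chr14:64388327-64388356, plus strand, to set beside that of *MTHFD1L*.
MTHFD1: cagtccctaagCACGTGggttgggttgtcc

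*MTHFD2*, whose window holds an antioxidant response element core just after its start, has neither of these letters. *MTHFD1* libraries were at 269 and 269.9 CPM in siCtrl DMSO, 249 and 232 CPM in siY/T DMSO and 314 and 319 CPM in siATF4 DMSO cells. In Srf they were at 245 and 246 CPM with siCtrl, 226 and 225 CPM with siY/T, and 338 and 345 CPM with siATF4. The 4 siATF4 libraries were the highest of the 12, opposite to *PHGDH*, where they were the lowest. The log2 fold change with siATF4 was 0.23 in DMSO and 0.47 in Srf (standard error 0.040, limma, Benjamini-Hochberg adjusted p = 0.000206 and 2.10e-07), under the fold threshold, and the difference between the 2 was 0.24 (limma, Benjamini-Hochberg adjusted p = 0.00450). After quantile normalization that difference was 0.12 and no longer passed. With siY/T the changes were -0.16 and -0.13.

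*SHMT1* (Entrez 6470, GRCh37 chromosome 17 from 18231174 to 18266877, minus strand) encodes the cytosolic serine hydroxymethyltransferase. In DMSO its libraries were at 61.7 and 66.7 CPM with siCtrl, 74.6 and 73.6 CPM with siY/T, and 56.7 and 57.7 CPM with siATF4. In Srf they were at 57.3 and 59.7, 54.6 and 55.6, and 73.0 and 71.8 CPM in the same order. The order of the groups was thus reversed between the media, with siY/T highest in DMSO and siATF4 highest in Srf, and the libraries of neighbouring groups within a medium did not overlap. The effect of siATF4 was -0.16 in DMSO and 0.31 in Srf, a difference of 0.47 (standard error 0.068, limma, Benjamini-Hochberg adjusted p = 0.000165). That of siY/T was 0.21 in DMSO and -0.086 in Srf, a difference of -0.29 (limma, Benjamini-Hochberg adjusted p = 0.00927). Each single effect stayed under the fold threshold.

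*GLDC* (Entrez 2731, GRCh37 chromosome 9 from 6532467 to 6645729, minus strand) encodes the glycine decarboxylase of the mitochondrial glycine cleavage system. Its libraries were at 11.2 and 11.98 CPM in siCtrl DMSO, 7.06 and 7.68 CPM in siY/T DMSO and 10.9 and 10.2 CPM in siATF4 DMSO cells. They lay between 6.66 and 8.06 CPM in the 3 Srf groups, where siCtrl overlapped with each depletion but siATF4 lay above siY/T. At this depth the counts were 285 to 602 reads per library. *GLDC* fell with siY/T in DMSO by 0.62 (standard error 0.086, limma, Benjamini-Hochberg adjusted p = 4.11e-05) and with Srf in siCtrl cells by 0.59 (limma, Benjamini-Hochberg adjusted p = 5.92e-05). Both calls were near the threshold. The first was -0.58 without siCtrl DMSO replicate 2 and -0.56 without siY/T DMSO replicate 1, and the second -0.54 without siCtrl DMSO replicate 2 and -0.51 without siCtrl Srf replicate 1, no longer past it. In Srf the change with siY/T was -0.091, and the difference between the media, 0.53, passed its test (standard error 0.122, limma, Benjamini-Hochberg adjusted p = 0.00880).

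**Figure D2:**
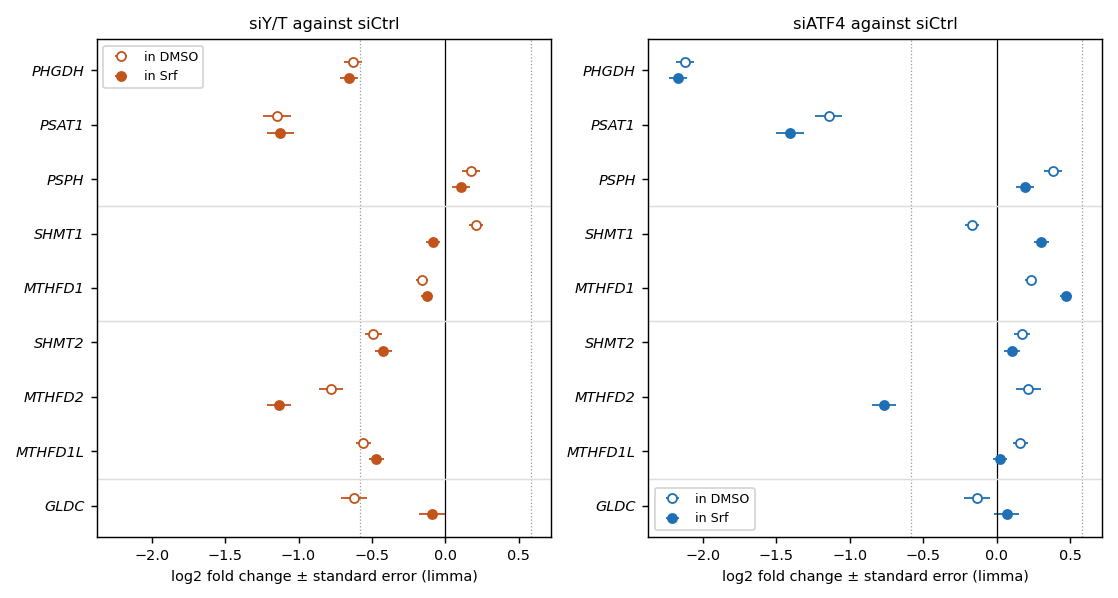
Log2 fold change with its standard error (horizontal axes) of siY/T (left) and siATF4 (right) against siCtrl for the 9 enzymes, in DMSO (open) and in Srf (filled), with dotted lines at -0.58 and 0.58. For *MTHFD2* the siATF4 points lie on either side of 0, at 0.22 and -0.76, while both siY/T points lie below -0.58.

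The depletions were also compared directly. The siCtrl libraries do not enter these log2 fold changes, but they share in the spread behind the p-values, since the fit held all 12 libraries. In DMSO, siATF4 cells had 1 enzyme lower than siY/T cells (*PHGDH*) and 3 higher (*SHMT2*, *MTHFD2* and *MTHFD1L*), against 22.7% lower and 13.0% higher of all genes tested. The 3 that were higher are the mitochondrial folate enzymes, with log2 fold changes of 0.66, 0.99 and 0.72 (limma, Benjamini-Hochberg adjusted p = 1.52e-07, 1.16e-07 and 1.78e-08), and neither of the cytosolic ones was called. *GLDC*, at 0.49, passed by edgeR and DESeq2 on the recovered reads, with 0.58 and 0.59, and after quantile normalization, with 0.73. In Srf, 1 was lower (*PHGDH*) and 1 higher (*MTHFD1*, 0.60), against 23.7% and 14.8% of all genes, and the mitochondrial 3 were at 0.53, 0.37 and 0.49 in the same order. *MTHFD1* no longer passed after quantile normalization, with 0.57. *SHMT2* passed in Srf after TMM scaling, with 0.59, by edgeR and DESeq2 on the recovered reads, with 0.59 by each, and without siATF4 Srf replicate 1, with 0.60.

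With Srf in siCtrl cells, 1 of the 9 enzymes was called higher (*MTHFD2*) and 1 lower (*GLDC*), against 12.3% higher and 5.15% lower of all genes tested. *PHGDH* and *PSAT1* were higher in both Srf libraries than in both DMSO libraries, by 0.48 (standard error 0.061) and 0.43 (standard error 0.093), under the fold threshold. In siY/T cells 0 enzymes were called higher and 0 lower, against 5.83% and 4.14% of all genes, and in siATF4 cells again 0 and 0, against 5.68% and 2.95%. At an unadjusted p under 0.05 in limma alone, 6 enzymes differed between the media in siY/T cells and 6 in siATF4 cells. No share over all genes is given for that p alone, so these counts cannot be set against a background. With the fold threshold, edgeR and DESeq2 on the recovered reads also made 0 calls in each.

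The 3 serine enzymes lay higher with Srf in siCtrl cells by 0.28 to 0.48 and in siY/T cells by 0.21 to 0.45. In siATF4 cells *PHGDH* was still higher with Srf, by 0.43 (limma, Benjamini-Hochberg adjusted p = 8.14e-05), and the differences of this response from that in siCtrl cells were the -0.048 given above for siATF4 and the -0.024 for siY/T. *PSAT1* was at 0.17 and *PSPH* at 0.088 there, with adjusted p from limma by Benjamini-Hochberg of 0.152 and 0.257. For *PSAT1* the response differed between siATF4 and siCtrl cells by -0.26 (standard error 0.132, limma, Benjamini-Hochberg adjusted p = 0.130). This passed after quantile normalization, with -0.36, in a fit of only the groups compared, and without either siY/T DMSO library, with -0.26 in each of these 3. The same 3 fits passed *PSPH*, with -0.19. *PSAT1* was called higher with Srf in siY/T cells without siY/T DMSO replicate 1, with 0.59, or siY/T Srf replicate 2, with 0.61, and *MTHFD2* without the latter, with 0.59.

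**Figure D3:**
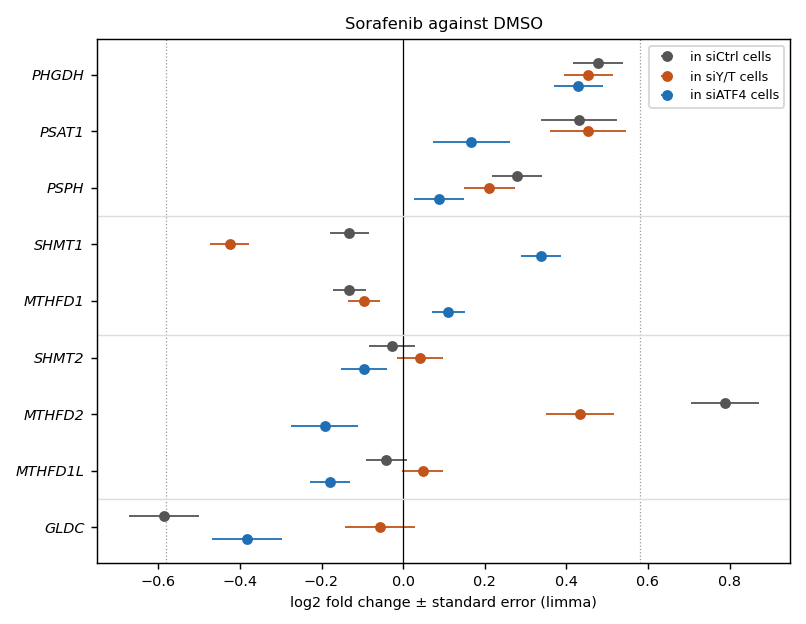
Log2 fold change with its standard error (horizontal axis) of Srf against DMSO for the 9 enzymes in siCtrl, siY/T and siATF4 cells, with dotted lines at -0.58 and 0.58. *PHGDH* lies at 0.48, 0.45 and 0.43 in siCtrl, siY/T and siATF4 cells, while *MTHFD2* spreads from 0.79 in siCtrl to 0.43 in siY/T and -0.19 in siATF4 cells and *SHMT1* from -0.43 in siY/T to 0.34 in siATF4 cells.

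The difference between the media in the effect of siATF4 passed its test for 3 of the 9 enzymes, lower for *MTHFD2* and higher for *SHMT1* and *MTHFD1*, against 41.1% of all genes tested. That share is close to the background. In a fit of only the groups compared 5 enzymes passed, but no share over all genes is given for that fit. For siY/T the difference also passed for 3, *SHMT1*, *MTHFD2* and *GLDC*, against 22.0% of all genes. Proliferation genes moved in the same contrast. All 15 of a list of them passed as higher in the siATF4 difference, against 2608 of the 13515 genes tested. The summed level of the 15 was 6961 to 7078 CPM in siCtrl DMSO and 5744 to 5824 CPM in siATF4 DMSO cells. In Srf it was 4122 to 4233 CPM with siCtrl and 5645 to 5652 CPM with siATF4. The part of the 15 in the values of the cytosolic enzymes was not tested.

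Since both enzymes of a pair come from the same library, the log2 ratio of a mitochondrial to a cytosolic enzyme does not depend on the scaling of the libraries. For *MTHFD2* to *MTHFD1* it was -1.43 and -1.52 in siCtrl DMSO, -2.04 and -2.13 in siY/T DMSO and -1.47 and -1.51 in siATF4 DMSO cells. In Srf it was -0.53 and -0.57 with siCtrl, -1.41 and -1.71 with siY/T, and -1.75 and -1.83 with siATF4. The siATF4 libraries thus overlapped with those of siCtrl in DMSO and differed from them by -1.24 in Srf, while those of siY/T differed by -0.62 and -1.01.

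Averaged over the media, the change of that ratio was -0.81 with siY/T (exact two-sided permutation test within media, p = 0.0556) and -0.63 with siATF4 (exact permutation test, p = 0.167). With 36 arrangements 0.0556 is the smallest p this test can give, so none of these ratios could pass 0.05. For *SHMT2* to *SHMT1* the change was -0.52 with siY/T (exact permutation test, p = 0.0556), with -0.70 in DMSO and -0.34 in Srf, and 0.067 with siATF4, with 0.34 in DMSO and -0.20 in Srf. The ratio of *MTHFD1L* to *MTHFD1* changed by -0.37 with siY/T and by -0.26 with siATF4 (exact permutation test, p = 0.0556 for each). The siATF4 value came mainly from Srf, with -0.45 against -0.069 in DMSO. A ratio does not show which enzyme of the pair moved. With siATF4 in Srf the log2 fold changes were 0.024 for *MTHFD1L*, 0.10 for *SHMT2* and -0.76 for *MTHFD2*. Those of the cytosolic enzymes were 0.47 for *MTHFD1* and 0.31 for *SHMT1*. With siY/T in DMSO *SHMT2* was at -0.49 and *SHMT1* at 0.21. Under siY/T all 3 ratios were lower than in siCtrl cells in both media, with no overlap of the libraries.

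**Figure D4:**
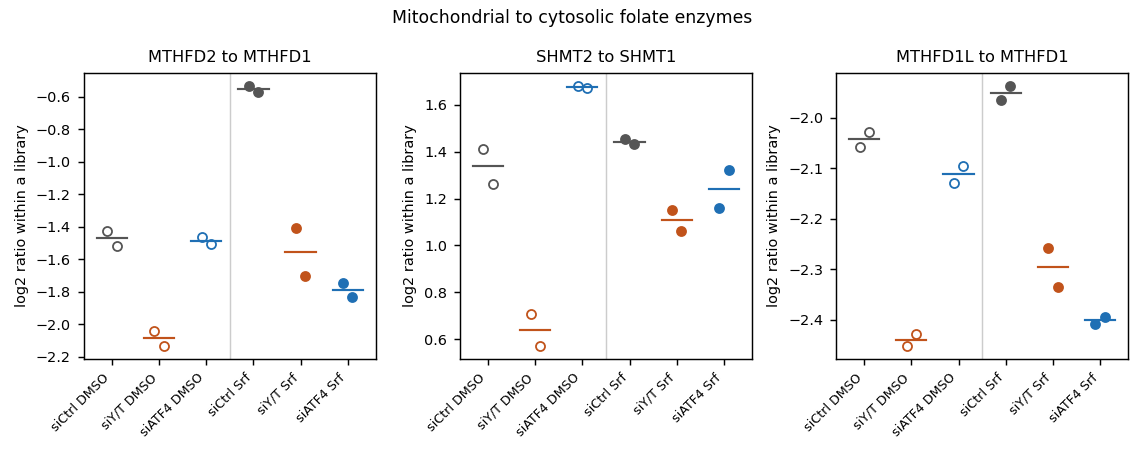
Within-library log2 ratio of a mitochondrial to a cytosolic folate enzyme (vertical axes, not starting at 0) in the 6 groups, with 1 point per library, open for DMSO and filled for Srf, and a line at the mean. The siY/T libraries lie below the siCtrl libraries of the same medium in each panel, and for *MTHFD2* to *MTHFD1* the siATF4 libraries lie at the siCtrl level in DMSO only.

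Of 48 other genes in 4 lists of folate, methionine and serine metabolism, 37 passed the filter on low values, 8 of 12 in the mitochondrial folate and glycine cleavage list, 11 of 14 in the cytosolic folate list, 8 of 11 in the methionine cycle list and 10 of 11 in the list of serine and glycine import and use. With siATF4 in DMSO, 0, 0, 1 and 3 of them were called lower and 2, 1, 0 and 1 higher, in that order of the lists. In Srf, 1, 2, 1 and 4 were lower and 1, 2, 0 and 0 higher. With siY/T in DMSO, 0, 0, 1 and 0 were lower and 1, 0, 0 and 1 higher. In Srf 0, 0, 1 and 1 were lower and 0, 0, 0 and 1 higher. Over all genes tested, 14.1% were called lower and 8.57% higher with siATF4 in DMSO, and 18.7% and 10.3% in Srf. For siY/T these shares were 3.61% and 11.0% in DMSO and 3.84% and 6.11% in Srf. The median of each list lay between -0.10 and 0.0014 with siY/T and between -0.27 and 0.42 with siATF4, beside the medians over all genes given above.

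*CBS*, which encodes cystathionine beta-synthase and joins serine to homocysteine, was called in all 5 comparisons with siCtrl. Its libraries were at 51.8 and 46.9 CPM in siCtrl DMSO, 30.2 and 23.2 CPM in siY/T DMSO and 14.7 and 14.7 CPM in siATF4 DMSO cells, and in Srf at 95.6 and 104, 56.7 and 48.1, and 13.8 and 13.7 CPM in the same order. Its log2 fold change with siATF4 was -1.71 in DMSO and -2.81 in Srf (standard error 0.105, limma, Benjamini-Hochberg adjusted p = 1.34e-08 and 1.02e-10). With Srf it rose by 1.01 in siCtrl cells, and the siATF4 libraries of both media lay between 13.7 and 14.7 CPM.

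Carriers differed in direction with siATF4. *SLC19A1*, the reduced folate carrier, was called higher by 0.67 in DMSO and 0.90 in Srf, and *SLC25A32*, the mitochondrial folate carrier, by 0.86 and 0.80, both named after their values were seen. *SLC6A9*, a glycine transporter, stood at 10.3 and 9.61 CPM in siCtrl DMSO cells against 3.36 and 3.64 CPM in siATF4 DMSO cells, and at 19.5 and 19.8 CPM against 3.89 and 3.34 CPM in Srf, log2 fold changes of -1.38 and -2.29. *SLC1A4*, a carrier of serine and other neutral amino acids, had log2 fold changes with siATF4 of -0.79 in DMSO and -1.36 in Srf. With siY/T it fell by 0.74 in Srf. In DMSO its siATF4 libraries were at 21.9 and 23.4 CPM, while its siY/T libraries, at 40.4 and 35.4 CPM, overlapped with those of siCtrl at 40.9 and 38.5 CPM. *PTDSS1*, which makes phosphatidylserine, stood at 192 and 192 CPM in siCtrl DMSO cells against 74.6 and 70.9 CPM in siATF4 DMSO cells, a fall of 1.40 (standard error 0.044, limma, Benjamini-Hochberg adjusted p = 3.76e-11), and fell by 1.21 in Srf. Its siY/T libraries, between 224 and 240.5 CPM, were above those of siCtrl.

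*GCAT*, a mitochondrial enzyme of threonine breakdown to glycine, rose by 0.99 with siATF4 in DMSO, from 7.93 and 8.48 to 16.8 and 16.8 CPM. *TYMS*, the thymidylate synthase that uses methylenetetrahydrofolate, fell with Srf in siCtrl cells by 1.01 (standard error 0.042, limma, Benjamini-Hochberg adjusted p = 2.63e-09), from 402 and 409 to 195 and 206 CPM. In siATF4 cells it was at 405 and 419 CPM in DMSO and at 389.8 and 381 CPM in Srf. Of the 15 proliferation genes 13 were called lower with Srf in siCtrl cells, 14 in siY/T cells and 1 in siATF4 cells. The shares over all genes tested were 5.15%, 4.14% and 2.95% in that order. The part of the proliferation genes in the values of *TYMS* was not tested.

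**Figure D5:**
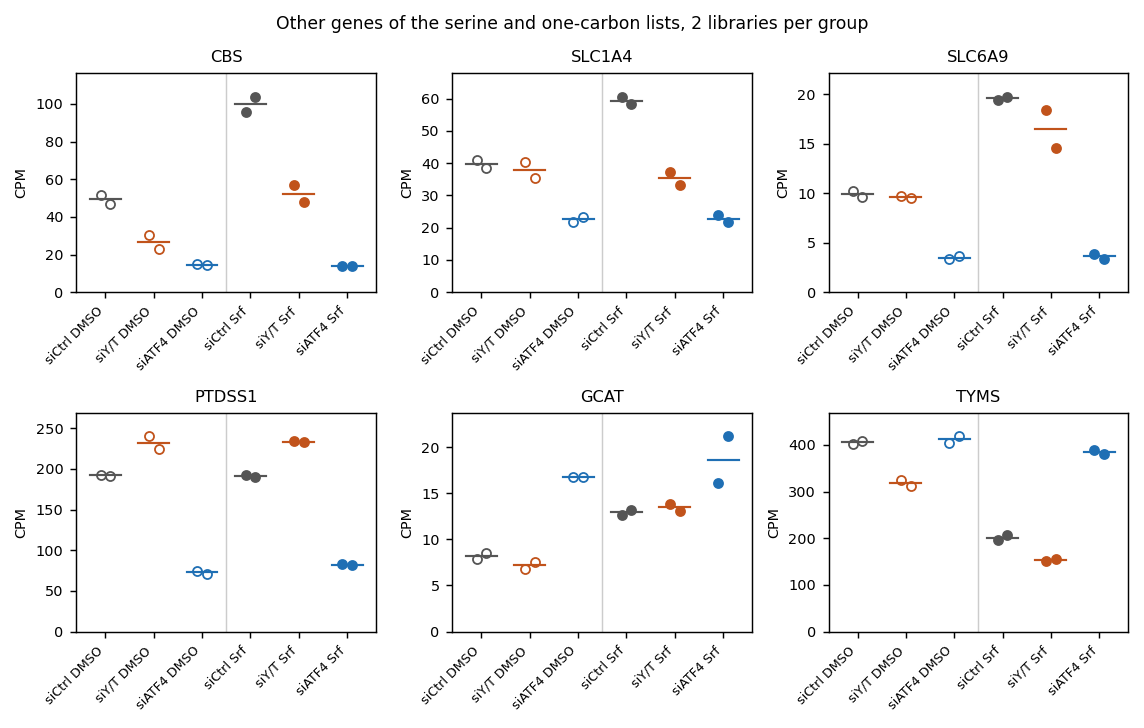
CPM (vertical axes, starting at 0 and scaled for each gene) of 6 further genes in the 6 groups, with 1 point per library, open for DMSO and filled for Srf, and a line at the mean. *CBS*, *SLC6A9* and *SLC1A4* are highest in siCtrl Srf cells and stay low with siATF4 in both media, whereas *TYMS* is low with Srf in siCtrl and siY/T cells and at 381 to 389.8 CPM in siATF4 Srf cells.

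Over the 12 libraries, which share their 6 groups, the profiles of the enzymes were compared by Pearson's r of log2(CPM + 0.5), as a description. *SHMT2* and *MTHFD1L* had the closest profiles of any 2 of the 9, with r = 0.99, and *PHGDH* and *PSAT1* had r = 0.80. *MTHFD2* had r = 0.76 with *MTHFD1L*, 0.67 with *PSAT1* and 0.14 with *PHGDH*, and *PHGDH* had -0.80 with *MTHFD1*. Among the 11152 genes whose mean reached 5 CPM, the profile most like that of *PSAT1* was that of *ASNS* (r = 0.99), followed by *XPOT* and *DSE* (0.97 and 0.96). For *PHGDH* these were *SEPTIN9*, *EEF1A2* and *TTC7B* (0.99, 0.99 and 0.98), for *MTHFD2* *CARS1*, *LARP1* and *CKB* (0.96, 0.96 and 0.95), and for *MTHFD1L* *EIF2S2*, *SHMT2* and *TMEM40* (0.99, 0.99 and 0.98). The closest to *MTHFD1* were *EIF2B3*, *MTCH2* and *PCGF6* (0.995, 0.99 and 0.99), to *SHMT2* *MTHFD1L*, *TMEM40* and *EIF2S2* (0.99, 0.98 and 0.98), and to *PSPH* *FAM162A*, *CD63* and *POLB* (0.98, 0.97 and 0.96). *SHMT1* was most like *BHLHE41*, *REXO5* and *FBXO43* (0.95, 0.94 and 0.94), and *GLDC* most like *RSC1A1*, *HSP90AB1* and *G3BP1* (0.96, 0.95 and 0.95).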

How the data were processed

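The authors aligned reads with STAR to hg19, retained unique hits, counted RefSeq mRNA exons with QuasR and deposited CPM (counts per 1000000 gene-assigned reads). Whether the counting used strand is not given in the sources used here. The study's methods name biological triplicates and another sequencer than the labels, whereas 2 libraries per group were deposited. All values were whole multiples of 1 read within 0.01 read in 100% of cases, so whole reads were recovered, and 0 columns stayed unmapped to a sample.

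The 13515 of 26258 genes that reached 1 CPM in 2 or more libraries were tested with limma 3.58.1 in R 4.3.3 on log2(CPM + 0.5), 1 coefficient per group over all 12 libraries and a mean-variance trend. Calls used a log2 fold change of 0.58 or more in size with an unadjusted p under 0.05, and differences between effects a Benjamini-Hochberg adjusted p under 0.05 over all genes tested. Ratios were tested by an exact permutation test within media. Names came from a RefSeq table, positions and MANE Select lengths from GENCODE on GRCh37, and promoter windows from RefSeq on GRCh38.p14.

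The enzymes, the other lists and the motifs were chosen with earlier results of these data known. The genes named are the 9 enzymes, the siRNA targets, up to 4 called genes of the other lists per comparison with siCtrl (largest change, no overlap of the libraries, mean of at least 5 CPM), and the 3 genes most correlated with each enzyme, and 1 gene that met this rule is not reported here. The alternatives were pseudocounts of 0.1 and 1, no filter or 5 CPM, TMM and quantile normalization, edgeR 4.0.16 or DESeq2 1.42.0 on the recovered reads, a replicate block, fits restricted to the groups compared, adjusted p with a change of at least 0.58 or 1, and leaving out each library. The fits were tested on simulated reads with 200 changed genes.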

Additional observations from a re-analysis of the deposited data

Results flagged for a closer look

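The effect of a siRNA was compared between Srf and DMSO by an interaction term in limma. It passed at a Benjamini-Hochberg adjusted p under 0.05 over all genes. With siATF4 the difference was lower for 1 and higher for 2 of the 9 enzymes, against 41.1% of all genes tested passing. With siY/T it was lower for 2 and higher for 1, against 22.0% of all genes. *MTHFD2* and *SHMT1* passed with both siRNAs. For siATF4 the differences were -0.98 for *MTHFD2* (standard error 0.117), 0.47 for *SHMT1* (0.068) and 0.24 for *MTHFD1* (0.057). For siY/T they were -0.36 for *MTHFD2* (0.117), -0.29 for *SHMT1* (0.068) and 0.53 for *GLDC* (0.122). For *SHMT1* both siY/T libraries were above the siCtrl libraries in DMSO and below them in Srf, and both siATF4 libraries were below them in DMSO and above them in Srf. The siY/T difference of *MTHFD2* was lost in 10 of the 12 fits without 1 library, in 8 of them with a value between -0.40 and -0.31, and the siATF4 difference of *MTHFD1* was 0.12 and no longer passed after quantile normalization.

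Among the siRNA targets, the siATF4 difference was 0.61 for *WWTR1* (standard error 0.125) and -1.14 for *ATF4* itself (0.063), and the siY/T difference was -0.33 for *ATF4* (0.063).

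Among the other genes named, the siATF4 difference was -1.10 for *CBS*, -0.91 for *SLC6A9*, -0.57 for *SLC1A4*, -0.49 for *GCAT*, 0.18 for *PTDSS1* and 0.92 for *TYMS*, and the siY/T difference was -0.68 for *SLC1A4*. That of *GCAT* rested on libraries, since it was -0.30 and no longer passed without siATF4 Srf replicate 1, where the 2 libraries stood at 16.1 and 21.2 CPM, and it was also lost without either siATF4 DMSO library (-0.49 in each), without siCtrl DMSO replicate 1 (-0.44) and without siCtrl Srf replicate 2 (-0.46). That of *PTDSS1* was lost without siATF4 DMSO replicate 2 (0.14) or replicate 1 or 2 of siATF4 Srf, siCtrl DMSO or siCtrl Srf (0.17 to 0.19), and was 0.072 after quantile normalization.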

How the results depend on the processing

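Of the log2 fold changes of the 9 enzymes, 1163 kept their side of the threshold, 9 passed and 16 were lost when 1 library was left out, and 1122, 14 and 16 under the other alternatives. A library outside the groups compared does not enter the log2 fold change. Leaving it out could alter only the p-value, so the count that kept their side overstates how far the values were tried. No called value changed sign. Under an adjusted p and a change of at least 1, the number of enzymes called was 1 with siY/T in DMSO, 0 with Srf in siCtrl cells, and 1 for siATF4 against siY/T in either medium. It was 1 with Srf in siCtrl cells at a pseudocount of 1, 1 for siATF4 against siY/T in Srf after quantile normalization, and 5 for the siATF4 difference in a fit of only the groups compared, where fewer libraries enter. Leaving out 1 library gave 1 to 2 with Srf in siCtrl cells, 0 to 2 with Srf in siY/T cells and 3 to 5 for the siATF4 difference. No share of all genes tested is given for these alternatives, so the counts cannot be set against a background. The cause of these changes was not tested. The replicate numbers showed no steady pairing of the libraries. Over 15 pairs of groups the correlation of the replicate differences ran from -0.28 to 0.19 and exceeded 0.1 in 4. These values cannot exclude that libraries of the same replicate number were handled together. With the replicate block the counts were the same, 4 with siY/T and 2 with siATF4 in DMSO and 3 with each in Srf. Over all genes the share lower among the calls moved by more than 10 percentage points after quantile normalization, from 24.7% to 43.0% with siY/T in DMSO, from 64.6% to 51.5% with siATF4 in Srf, from 29.5% to 47.7%, 41.5% to 53.1% and 34.2% to 45.3% with Srf in siCtrl, siY/T and siATF4 cells, and from 63.7% to 48.4% and 61.5% to 48.5% for siATF4 against siY/T in DMSO and Srf. The median of all genes for siATF4 against siY/T moved from -0.059 to 0.066 in DMSO and from -0.058 to 0.066 in Srf. With 2 libraries per group a lone remaining library was taken to vary like the others, and *GLDC*, with 285 to 602 reads, had the fewest reads of the 9 enzymes.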
